A study of Mus musculus with 38 samples.

Results

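Myeloid cells were compared with CD45+ cells, both sorted from the dorsal skin of wild type mice at postnatal day 56 (P56), when wild type hair follicles rest. The libraries compared were the 4 that the labels place in these 2 groups, Myeloid WT P56 and Immune WT P56, 2 a group, out of 38 in the series. The study profiled sorted skin cells in a mouse model of hairy nevi by bulk RNA sequencing, at P30 and P56. CD45, the product of *Ptprc*, is carried by nearly all white blood cells, so the second population is expected by its name to hold the first. The gates for both populations, the strain and the sex behind each library are not given in the sources used here, and the study used mice of both sexes. The study describes its bulk RNA samples as biological triplicates, while the groups used here hold 2 libraries each. No label ties a library to an animal, so whether the spread within a pair of libraries is that between animals is not known. Libraries of the same cell types from wild type mice at P30 (4 libraries) and from mutant mice at P56 (4 libraries) serve below for comparison. The mutant mice are, by the study's account, transgenic for an oncogenic *Nras* under the tyrosinase promoter, which is active in pigment cells, and the wild type mice lack it.

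Skin at rest holds several kinds of white blood cell. Macrophages and dendritic cells, the myeloid cells of the dermis, take up debris and microbes through scavenger, lectin and Fc receptors, make complement and chemokines, and show peptides to T cells on MHC class II molecules. The mouse epidermis holds Langerhans cells, which are marked by the lectin langerin (*Cd207*), and a dense net of T cells that carry CD3, the signalling part of the T cell receptor, and killing proteins such as perforin.

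The values are FPKM, read fragments scaled to transcript length and library total, which the authors deposited in 1 table per cell type. Cell type and table coincide, so a difference between cell types and a difference between tables cannot be told apart. For that reason no test was made and only large differences are reported. Values were divided by 1 factor per library, the median ratio to the 4 libraries (0.913 and 0.917 for the myeloid, 1.11 and 1.08 for the CD45+ libraries), and all levels below are such rescaled FPKM. Differences are of log2(FPKM + 1), myeloid minus CD45+, which understates the ratio of low genes. A gene was called where the means differed by 4-fold or more on this scale (a log2 difference of 2 or more) and both libraries of 1 cell type stood above both of the other. In bulk libraries, fewer cells of a type and less RNA per cell cannot be told apart. With no read counts in the tables, the depth of each library is unknown. The study states only a range of average depth for its bulk libraries. The 4 libraries reached 1 FPKM in 11405 to 12259 genes, and log2 values correlated across genes at 0.996 and 0.997 within and 0.773 to 0.774 between cell types, where genes are not independent replicates.

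Of 11868 protein-coding genes compared, 719 were higher in myeloid cells (6.06%) and 858 were higher in CD45+ cells (7.23%). Counts of called members in the gene lists below stand beside these shares. The 2 libraries of a cell type stood 4-fold or more apart in 2 genes in either cell type, and their median absolute log2 difference was 0.0873 in myeloid and 0.0802 in CD45+ cells, against 0.725 between cell types. The largest differences lay on the CD45+ side. There 87 genes differed by 32-fold or more and 19 by 128-fold or more, against 3 and 0 on the myeloid side. Among called genes 19 of those higher in myeloid cells were listed at 0 in both CD45+ libraries, and 96 of those higher in CD45+ cells were listed at 0 in both myeloid libraries. The threshold itself fell between *Spire1* (2.0003) and *Zfp386* (1.9994) on the myeloid side and between *Acer1* (-2.0003) and *Cecr5* (-1.9994) on the CD45+ side. The split of calls moved with the scaling, from 45.6% higher in myeloid cells to 35.7% with the deposited values as they are and to 27.9% with equal FPKM sums. These scalings shift the median difference of all genes by -0.22 and -0.41.

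**Figure D1:**
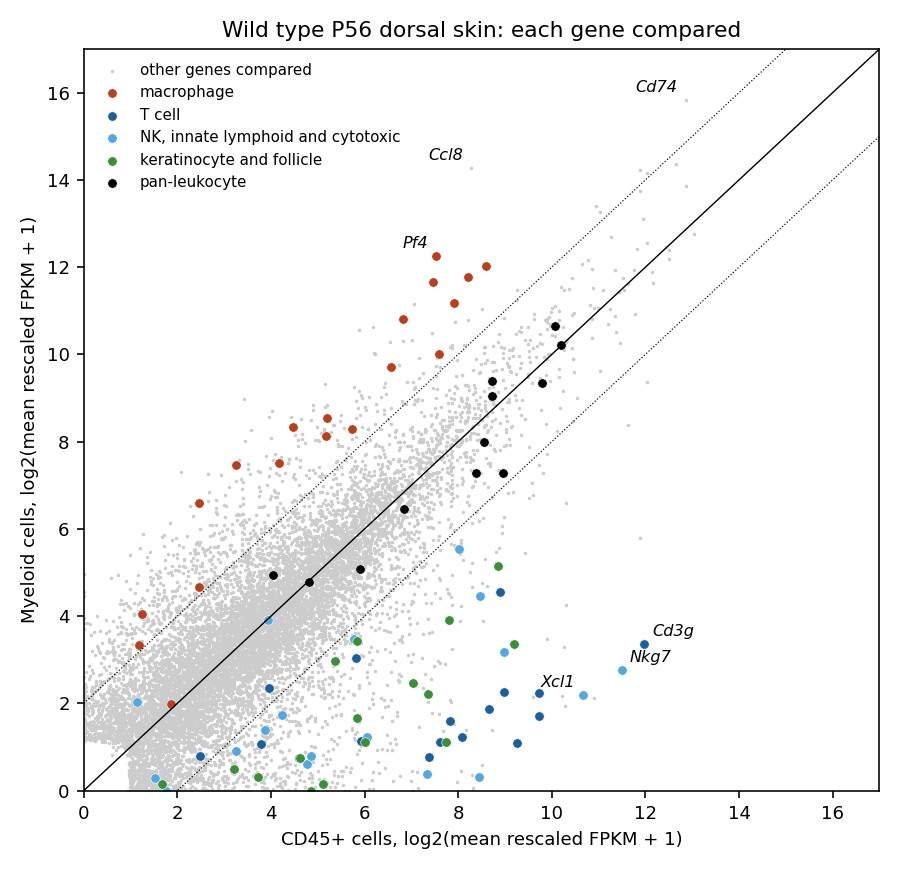
Mean level of each of the 11868 genes compared in CD45+ cells (x axis) and myeloid cells (y axis) at wild type P56, both as log2 of the mean rescaled FPKM + 1; coloured points are members of 5 gene lists, the solid line marks equal levels and the dotted lines 4-fold differences. Most macrophage genes lie above the dotted lines, most T cell, cytotoxic and keratinocyte genes below them, and the pan-leukocyte genes between them.

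The largest difference on the myeloid side was in *Ccl8*, a chemokine gene (ENSMUSG00000009185.2, chromosome 11, 82115185 to 82116799, + strand), which stood at 19966 and 19499 FPKM in the myeloid and 312 and 308 FPKM in the CD45+ libraries. The log2 difference was 5.99 (pairs of libraries from 5.96 to 6.01). *Pf4*, which encodes the chemokine CXCL4 (ENSMUSG00000029373.7, chromosome 5, 90772435 to 90773383, + strand), read 4919.6 and 4834 FPKM in the myeloid and 177 and 191 FPKM in the CD45+ libraries, a difference of 4.72. The 2 groups were far apart for both genes. On the CD45+ side *Cd3g*, a subunit of CD3 (ENSMUSG00000002033.13, chromosome 9, 44969572 to 44980431, - strand), read 9.60 and 8.80 FPKM in the myeloid and 3958 and 4096 FPKM in the CD45+ libraries, a difference of -8.63 (pairs of libraries from -8.71 to -8.54). Its neighbours *Cd3d* and *Cd3e* on chromosome 9 encode other CD3 subunits. The former read 0.953 and 1.30 FPKM in the myeloid and 612 and 615 FPKM in the CD45+ libraries, the latter 4.16 and 3.27 FPKM in the myeloid and 799 and 888 FPKM in the CD45+ libraries. Both CD45+ libraries held all 3 transcripts at levels far above those of the myeloid libraries.

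The promoter stretches of these genes and of *Xcl1*, a chemokine gene of lymphocytes described below, are shown. Chemokine genes are among the large differences in both directions, and CD3 genes among those higher in CD45+ cells. Each line gives the 250 bases before the RefSeq transcription start on GRCm38.p6, in the direction of the gene. Capitals mark matches on either strand to AGGAAG, the core bound by ETS family factors, to TGTGGT, which RUNX factors bind, or to TATAAA, the TATA box. No matches overlap in the stretches shown, where each run of capitals is 1 match, and a match on the other strand is printed as its reverse complement. The positions are chr11:82114935-82115184 (+ strand) for *Ccl8*, chr5:90772185-90772434 (+) for *Pf4*, chr9:44980432-44980681 (-) for *Cd3g*, chr9:44981536-44981785 (+) for *Cd3d*, chr9:45009612-45009861 (-) for *Cd3e* and chr1:164935523-164935772 (-) for *Xcl1*.
Ccl8: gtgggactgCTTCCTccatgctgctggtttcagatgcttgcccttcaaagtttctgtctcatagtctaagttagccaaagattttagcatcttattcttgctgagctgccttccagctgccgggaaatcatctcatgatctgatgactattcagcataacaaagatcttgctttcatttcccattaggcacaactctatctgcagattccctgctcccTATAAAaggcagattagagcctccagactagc
Pf4: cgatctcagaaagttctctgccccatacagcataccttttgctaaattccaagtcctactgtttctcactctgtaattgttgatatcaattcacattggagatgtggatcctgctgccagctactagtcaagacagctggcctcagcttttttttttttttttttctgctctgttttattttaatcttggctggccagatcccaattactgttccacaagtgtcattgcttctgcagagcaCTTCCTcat
Cd3g: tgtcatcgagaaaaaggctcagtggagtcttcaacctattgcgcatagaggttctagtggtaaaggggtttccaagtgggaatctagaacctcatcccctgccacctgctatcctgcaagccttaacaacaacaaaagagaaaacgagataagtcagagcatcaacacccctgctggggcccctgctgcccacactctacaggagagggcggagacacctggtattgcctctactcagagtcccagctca
Cd3d: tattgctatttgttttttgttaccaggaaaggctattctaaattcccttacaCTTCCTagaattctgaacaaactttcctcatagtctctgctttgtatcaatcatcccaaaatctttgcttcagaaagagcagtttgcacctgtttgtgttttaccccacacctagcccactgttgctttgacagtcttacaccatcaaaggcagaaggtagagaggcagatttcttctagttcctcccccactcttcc
Cd3e: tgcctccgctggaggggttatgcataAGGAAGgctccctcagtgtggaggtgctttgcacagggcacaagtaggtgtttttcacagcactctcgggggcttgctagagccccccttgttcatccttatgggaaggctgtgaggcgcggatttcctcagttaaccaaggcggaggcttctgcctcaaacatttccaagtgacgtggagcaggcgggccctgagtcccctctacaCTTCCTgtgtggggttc
Xcl1: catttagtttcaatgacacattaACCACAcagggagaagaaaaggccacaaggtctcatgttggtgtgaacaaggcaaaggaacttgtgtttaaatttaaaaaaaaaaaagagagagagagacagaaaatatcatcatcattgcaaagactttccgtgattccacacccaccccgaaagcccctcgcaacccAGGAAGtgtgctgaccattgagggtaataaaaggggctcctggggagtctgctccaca
The *Ccl8* stretch holds 1 ETS core and 1 TATA match, *Pf4* and *Cd3d* hold 1 ETS core each, *Cd3e* holds 2, and *Xcl1* holds 1 ETS core and 1 RUNX match. None of these letters occur in the *Cd3g* window. A match is a description of letters and not a site of binding. The table of promoters matched 521 of the 719 genes higher in myeloid cells and 643 of the 858 higher in CD45+ cells. The ETS core was in 34.9% of the former and 31.3% of the latter, against 29.2% of all 27025 promoters and 29.1% of the 9064 matched among the genes compared. RUNX letters were in 12.7% and 15.9%, against 14.2% of all promoters and 11.0% of those compared, and TATA letters in 10.9% and 10.4%, against 12.97% of all promoters and 6.56% of those compared. No test was made of these shares.

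The 12 largest differences on the myeloid side held 10 other genes besides *Ccl8* and *Pf4*. *Timp2*, an inhibitor of matrix proteases (ENSMUSG00000017466.9, chromosome 11, 118301069 to 118355740, - strand), read 504 and 505 FPKM in the myeloid and 10.3 and 9.11 FPKM in the CD45+ libraries (5.57). *Igf1*, the gene for insulin-like growth factor 1 (ENSMUSG00000020053.18, chromosome 10, 87858265 to 87937042, + strand), read 378 and 375 FPKM in the myeloid and 14.8 and 14.1 FPKM in the CD45+ libraries (4.61), and *Klf2*, a transcription factor gene, read 252 and 259.6 FPKM in the myeloid and 10.3 and 9.59 FPKM in the CD45+ libraries (4.56). In each of these both myeloid libraries stood far above both CD45+ libraries. The chemokine *Ccl12* (4.70), the lectin *Cd209d* (4.68), the membrane protein *Ms4a4a* (4.69), *Rhobtb1* (4.63) and the sulfatase *Sulf2* (4.62) followed, with levels of 1507 against 58.1 FPKM for *Cd209d*. *Rbp4*, which encodes the carrier of retinol, read 30.0 and 30.7 FPKM in the myeloid libraries and is listed at 0 in both CD45+ ones. *Gm11175* read 150.0 and 164 FPKM in the myeloid and 6.45 and 0 FPKM in the CD45+ libraries. It is protein-coding in the tables, but the GENCODE M21 annotation has it as an antisense transcript (chromosome 8, 70699162 to 70700080, - strand) within *Jund* on the other strand, and without strand its reads and those of *Jund* (355 against 43.5 FPKM) cannot be told apart.

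**Figure D2:**
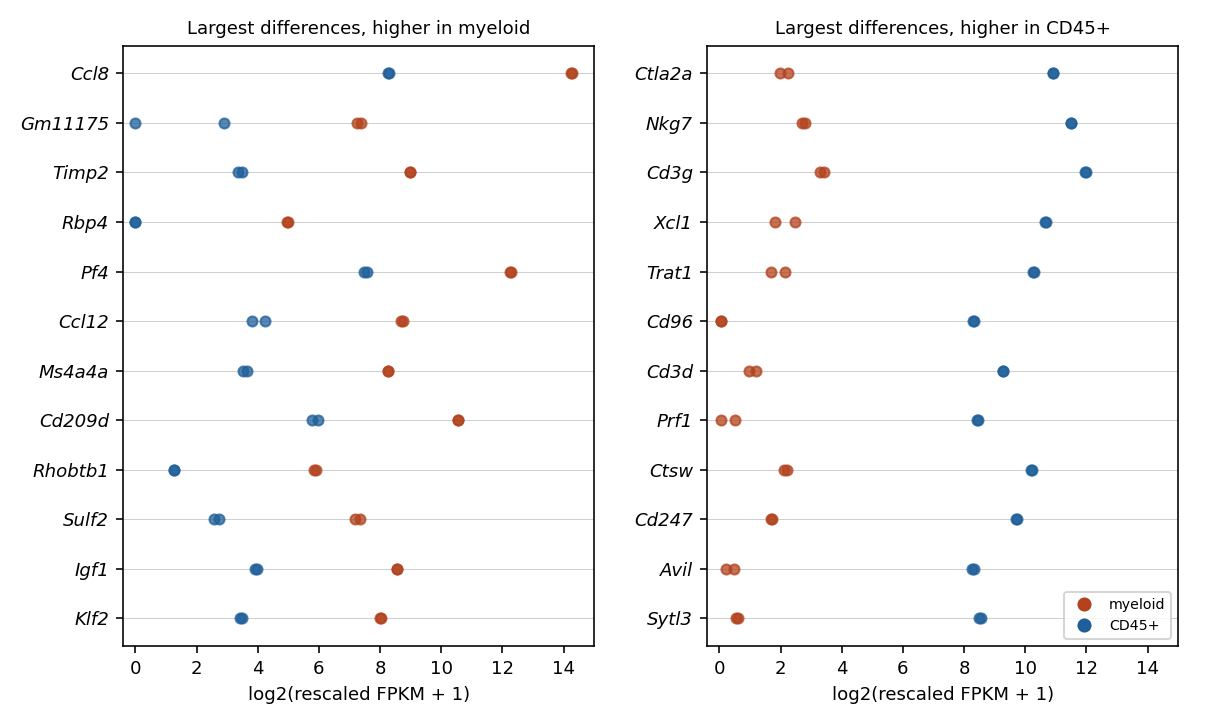
Level of the 12 genes with the largest difference in each direction in each library, as log2(rescaled FPKM + 1); red points are the 2 myeloid and blue points the 2 CD45+ libraries. The libraries of a cell type lie close together, apart from *Gm11175*, which is listed at 0 in 1 CD45+ library and at 6.45 FPKM in the other. No gene overlaps between the cell types, which the rule for calls requires.

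Genes that mark macrophages were higher in myeloid cells in 18 of 19 compared, with a median difference of 3.34 against -0.02 over all genes. Summed over the 20 listed genes, levels were 23660.1 and 23491 FPKM in the myeloid and 1865 and 1858 FPKM in the CD45+ libraries. *C1qc*, a chain of the complement starter C1q (ENSMUSG00000036896.5, chromosome 4, 136889804 to 136893065, - strand), stood at 3254 ± 29.0 FPKM (SD, n = 2) in myeloid and 176 ± 4.59 in CD45+ cells. *Stab1*, a scavenger receptor, stood at 174 ± 0.340 against 8.56 ± 0.511 FPKM, and *Fcgr1*, the high-affinity receptor of IgG, at 94.9 ± 4.38 against 4.51 ± 0.352. *Adgre1*, the gene of the macrophage antigen F4/80, read 307 and 312 FPKM in the myeloid and 52.6 and 51.9 FPKM in the CD45+ libraries (2.55), so that its transcript was present in both populations. *Lyve1* was the macrophage gene not called, at 2.97 against 2.64 FPKM. *Vsig4*, at 1.22 FPKM in myeloid and listed at 0 in CD45+ cells, did not pass the filter of 1 FPKM in 2 libraries. With equal FPKM sums 15 of the 19 macrophage genes were called. At wild type P30 and in the mutant fewer of them were called, as given below.

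The functions of phagocytes followed the same direction. Their lists share members with the macrophage list, among them *C1qc*, *Stab1* and *Fcgr1*, so the counts overlap. Of 15 complement and coagulation genes, 11 were higher in myeloid cells and none in CD45+ cells (median 2.68). They included *C1qb* (3.56) and *C1qa* (3.27), the other C1q chains, and *F13a1* (3.34), the A chain of the clot-binding factor XIII. Of 17 scavenger and phagocytic receptors, 13 were higher in myeloid cells (median 3.04), among them the class A scavenger receptor *Msr1*, at 46.3 against 1.30 FPKM (4.36), and the lectin *Cd209b* (3.90). *Trem2*, a lipid receptor of macrophages, was not called, at 28.1 against 7.36 FPKM. Of 7 Fc receptor genes, 5 were higher, with *Fcgr3* at 1046 against 72.6 FPKM (3.83), *Fcgr4* at 3.18 and the inhibitory *Fcgr2b* at 3.02.

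Of 19 genes of lysosomes and lipid handling, 5 were higher in myeloid cells (median 1.71), and 2 of them stayed called with equal FPKM sums. The proteases *Lgmn* (2.95), *Ctss* (2.53) and *Ctsb* (2.36) and the lipid carrier *Apoe*, at 10763 against 1971 FPKM, were among the 5. The calls of *Ctsb* and *Apoe* were lost with equal FPKM sums. Of 17 pattern recognition genes 7 were higher, with *Tlr4*, the receptor of lipopolysaccharide (11.6 against 0.453 FPKM), and its partner *Ly96* (116 against 12.6 FPKM) foremost and *Tlr8* (2.63) and *Tlr1* (2.55) next. Of 19 interferon response genes 8 were higher, including *Cxcl9* (3.85), *Gbp2* (2.94), *Mx1* (2.93) and *Oas2* (2.90).

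Myeloid core genes, which most myeloid cells share, were less one-sided, with 8 of 15 higher in myeloid cells (median 2.18). The transcription factor *Cebpa* (48.4 against 3.09 FPKM), *Aif1* (444 against 34.6 FPKM), the lectin *Clec4a2* (3.40) and *Lst1* (3.05) were called. *Itgam*, the gene of CD11b, read 36.2 and 36.7 FPKM in the myeloid and 10.3 and 10.4 FPKM in the CD45+ libraries and did not reach 4-fold (1.72). With equal FPKM sums 5 of the 15 were called. Of 11 monocyte genes 3 were higher, *Ly6c2* (2.46), the chemokine receptor *Ccr2* (2.19) and *Chil3* (2.10), and none of these 3 stayed called with equal FPKM sums. Neutrophil genes gave *S100a8* on the myeloid side (96.9 against 21.0 FPKM) and *Il1r2*, a decoy receptor of interleukin 1, on the CD45+ side (156 against 899 FPKM), out of 7 compared, and the call of *S100a8* was lost without rescaling and with equal FPKM sums. The neutrophil granule gene *Camp* is listed at 0 in all 4 libraries.

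Genes for showing antigen were also higher in myeloid cells. *Cd74*, the invariant chain of MHC class II and the most abundant transcript of the myeloid libraries, read 59925 and 57391 FPKM in the myeloid and 7462 and 7445 FPKM in the CD45+ libraries, a difference of 2.98 (pairs of libraries from 2.94 to 3.01). Of 14 genes of MHC class II presentation 6 were called, all higher in myeloid cells, with the class II activator *Ciita* (70.2 against 9.34 FPKM) and the costimulatory receptor *Cd40* (113 against 16.1 FPKM) among them. The other 8 differed by under 4-fold, for example *H2-Ab1* at 20935 against 6400.4 FPKM (1.71). With equal FPKM sums 4 of the 14 were called. Conventional dendritic cell genes gave 7 of 15 higher in myeloid cells (median 1.91), and 4 with equal FPKM sums. The lectins *Mgl2* (2295 against 132 FPKM), *Cd209a* (3.73) and *Clec10a* (3.48) led them, and *Fscn1*, an actin bundler of mature dendritic cells, was called too (2.67).

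T cell genes stood on the other side. Of 17 compared, 15 were higher in CD45+ cells and none in myeloid cells, with a median of -6.52, and summed levels were 65.7 and 65.2 FPKM in the myeloid and 8625 and 8841 FPKM in the CD45+ libraries. Besides the CD3 genes, *Cd247*, the zeta chain of the receptor complex, read 2.24 and 2.27 FPKM in the myeloid and 848 and 839 FPKM in the CD45+ libraries (-8.02). The kinases *Lck* (2.67 against 406 FPKM) and *Zap70* (1.15 against 196 FPKM), which act below the receptor, and *Thy1* (0.694 against 164 FPKM) were called in the same direction. *Cd28* (-1.62) and *Ubash3a* (-1.73) were not called. Among the ITAM adaptors, which link receptors to kinases, the CD3 chains and *Cd79a* were higher in CD45+ cells and *Tyrobp*, the adaptor of myeloid and natural killer receptors, was higher in myeloid cells (2837 against 607 FPKM), a call lost without rescaling and with equal FPKM sums, while *Fcer1g* stood level at 2859 against 2980.4 FPKM.

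The killing program of lymphocytes moved with the T cell genes. Of 18 cytotoxic, natural killer and innate lymphoid genes 14 were higher in CD45+ cells (median -3.25). *Nkg7*, a protein of cytotoxic granules (ENSMUSG00000004612.9, chromosome 7, 43437073 to 43438249, + strand), read 5.98 and 5.58 FPKM in the myeloid and 2862 and 2905 FPKM in the CD45+ libraries, and *Prf1*, the gene of perforin (ENSMUSG00000037202.5, chromosome 10, 61297833 to 61304680, + strand), read 0.427 and 0.0436 FPKM in the myeloid and 348 and 342 FPKM in the CD45+ libraries. The granzyme gene *Gzmc* stood at 0.306 against 159 FPKM (-6.94). The natural killer receptor *Ncr1* is listed at 0 in the myeloid libraries and read 2.38 FPKM on average in CD45+ cells, and *Eomes*, a transcription factor of natural killer cells, read 0.164 FPKM. The remaining large differences on this side were in the protease inhibitor-like *Ctla2a* (-8.79), the adaptor *Trat1* (-8.36), the receptor *Cd96* (-8.25), the protease *Ctsw* (-8.05), the actin regulator *Avil* (-7.94) and the vesicle protein *Sytl3* (-7.93).

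Genes linked to gamma delta T cells were higher in CD45+ cells in 5 of 9 compared, among them *Il17a* (0.733 against 14.1 FPKM), *Klra5* (-2.99) and the scavenger receptor *Cd163l1*, at 15.5 and 15.2 FPKM in CD45+ and listed at 0 in myeloid cells. Of 10 genes of alpha beta and regulatory T cells 5 were higher there, with *Tigit* (1.13 against 92.7 FPKM), *Tnfrsf18* (-3.10), *Ikzf2* (-2.73) and *Il2ra* (-2.72). The constant genes of the T cell receptor were not analysed here. Among 5 B cell and plasma cell genes the syndecan *Sdc1* (-3.17) was higher in CD45+ cells, as was *Cd79a*, listed at 0 in myeloid cells, and *Blnk* was higher in myeloid cells (2.63).

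Langerhans cell genes were on the CD45+ side in 5 of 10 compared. *Cd207* (ENSMUSG00000034783.7, chromosome 6, 83671215 to 83677857, - strand) read 40.4 and 44.2 FPKM in the myeloid and 691 and 681 FPKM in the CD45+ libraries, a difference of -3.99 (pairs of libraries from -4.06 to -3.92). *Runx3*, a transcription factor of Langerhans and cytotoxic T cells, stood at 11.0 against 123 FPKM. *Il34*, which encodes a growth factor that keratinocytes supply to Langerhans cells, stood at 0.158 against 18.0 FPKM, so the list does not hold transcripts of Langerhans cells alone. *Dnase1l3*, a secreted nuclease, was higher in myeloid cells (3.48). The mast cell protease *Tpsb2* was the 1 mast cell gene of 9 called, higher in CD45+ cells (-2.30), while *Fcer1a* is listed at 0 in all 4 libraries. Over all genes compared, 7.23% were called higher in CD45+ cells. Of 3 basophil and eosinophil genes, *Il4* at 3.62 against 2.85 FPKM and *Ccr3* at 0.268 against 1.41 FPKM among them, none was called.

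**Figure D3:**
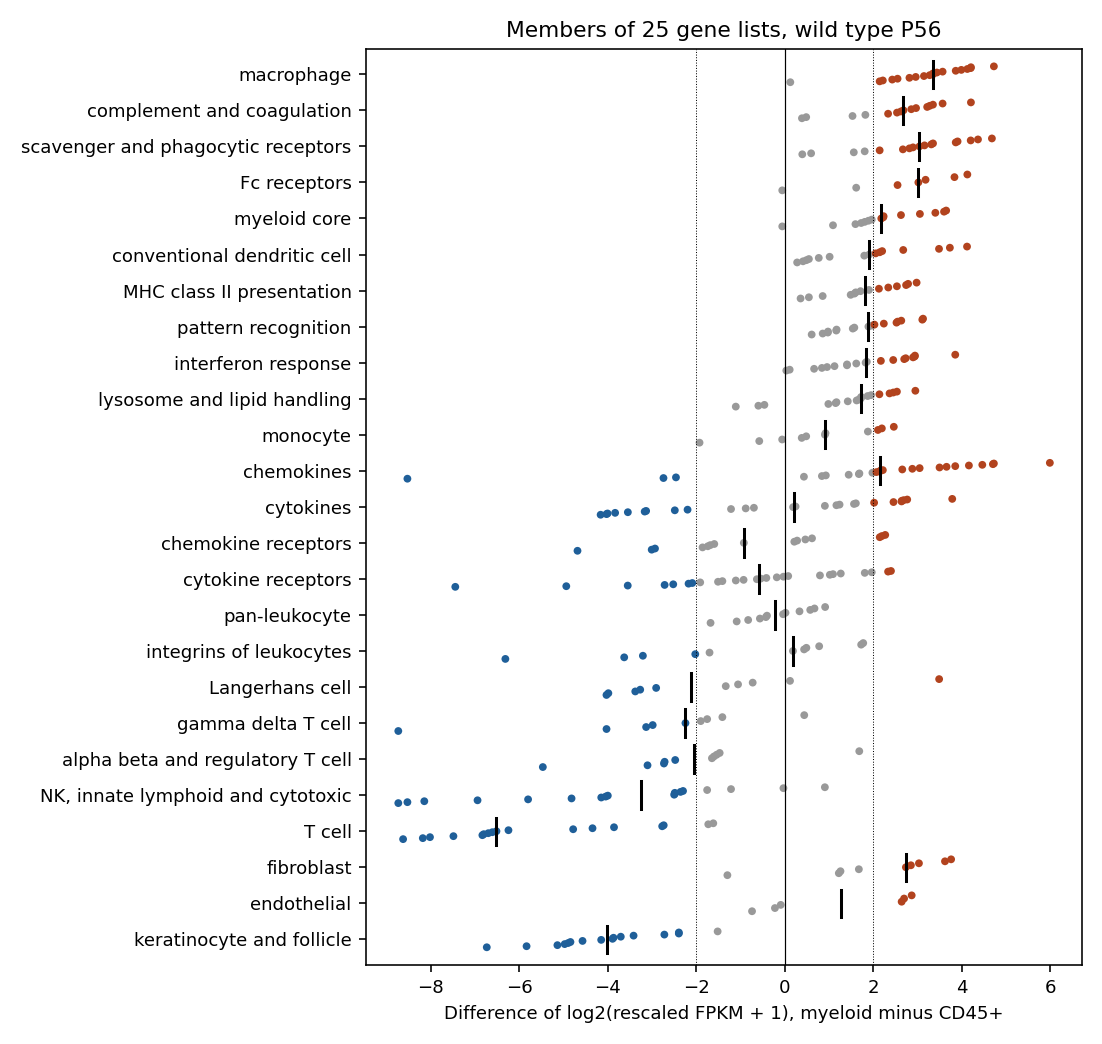
Difference of log2(rescaled FPKM + 1), myeloid minus CD45+, for each compared member of 25 gene lists at wild type P56; red points were called higher in myeloid and blue points higher in CD45+ cells, grey points were not called, black bars are list medians and dotted lines mark 4-fold. The macrophage median lies at 3.34 and the T cell median at -6.52, and no pan-leukocyte gene reaches a dotted line.

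Genes that white blood cells share differed by under 4-fold, as did most genes compared. None of 12 pan-leukocyte genes was called. Of all genes compared, 6.06% were called higher in myeloid and 7.23% higher in CD45+ cells. The median difference of the 12 was -0.22, against -0.02 over all genes. *Ptprc* itself read 151 and 160.3 FPKM in the myeloid and 329.8 and 334 FPKM in the CD45+ libraries (-1.09), lower in myeloid cells but within 4-fold. The median absolute difference of all genes compared was 0.725. *Cd52* stood at 1603 against 1077 FPKM and *Laptm5* at 1188 against 1177 FPKM. With equal FPKM sums 1 of the 12 was called, higher in CD45+ cells.

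Chemokines divided between the populations. Of 25 compared, 15 were higher in myeloid cells and 3 in CD45+ cells (median 2.15), and with equal FPKM sums 11 and 3. A cluster on chromosome 11 shows the division, chosen after its values were seen. From *Ccl2* (82035571 to 82037453) over *Ccl7*, *Ccl11* and *Ccl12* to *Ccl8* (82115185 to 82116799), all on the + strand, each gene was higher in myeloid cells. *Ccl2* stood at 594 against 133 FPKM, *Ccl7* at 1269 against 112 FPKM, and *Ccl11*, which attracts eosinophils, at 22.1 and 20.0 FPKM in myeloid libraries and listed at 0 in the others. The next gene, *Ccl1* (82176657 to 82305690, - strand), which attracts cells by the receptor CCR8, went the other way, at 1.33 against 14.2 FPKM. *Xcl1*, whose product attracts cross-presenting dendritic cells (ENSMUSG00000026573.7, chromosome 1, 164931644 to 164935527, - strand), read 2.50 and 4.60 FPKM in the myeloid and 1619.5 and 1647 FPKM in the CD45+ libraries (-8.53). *Ccl5* stood at 24.7 against 140.4 FPKM.

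Among 15 chemokine receptors 3 were higher on either side. *Cxcr6* (6.58 against 194 FPKM), *Ccr6* (1.12 against 16.1 FPKM) and *Ccr8* (12.6 against 103 FPKM), the last being the receptor of CCL1, were higher in CD45+ cells. *Ccr2* (148 against 31.8 FPKM), which binds ligands of the myeloid set, and *Ccr7* (187 against 41.6 FPKM), which guides cells to lymph nodes, were among those higher in myeloid cells. With equal FPKM sums no chemokine receptor was called higher in myeloid cells and 6 were higher in CD45+ cells.

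Of 26 cytokines 7 were higher in myeloid and 9 in CD45+ cells. *Il1b*, an alarm cytokine of macrophages, read 1041 and 1024 FPKM in the myeloid and 73.9 and 74.5 FPKM in the CD45+ libraries (3.78), and its antagonist *Il1rn* stood at 151 against 21.4 FPKM. The others on that side were *Il15* (2.68), *Tgfb1* (2.64), *Tslp* (2.63), *Osm* (2.45) and *Il18* (2.02). On the CD45+ side lay lymphocyte cytokines, *Ltb* (5.19 against 109 FPKM), *Lta* (0.350 against 20.7 FPKM), *Csf2* (0.186 against 16.0 FPKM), *Il2* (0.246 against 13.6 FPKM) and *Ifng* (1.61 against 13.6 FPKM), with *Il17a* given above. *Il34*, the keratinocyte factor given above, was also higher in CD45+ cells. *Il22* read 8.48 and 7.52 FPKM in the CD45+ libraries and is listed at 0 in myeloid cells. *Tnf* was not called, at 77.6 against 127 FPKM.

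**Figure D4:**
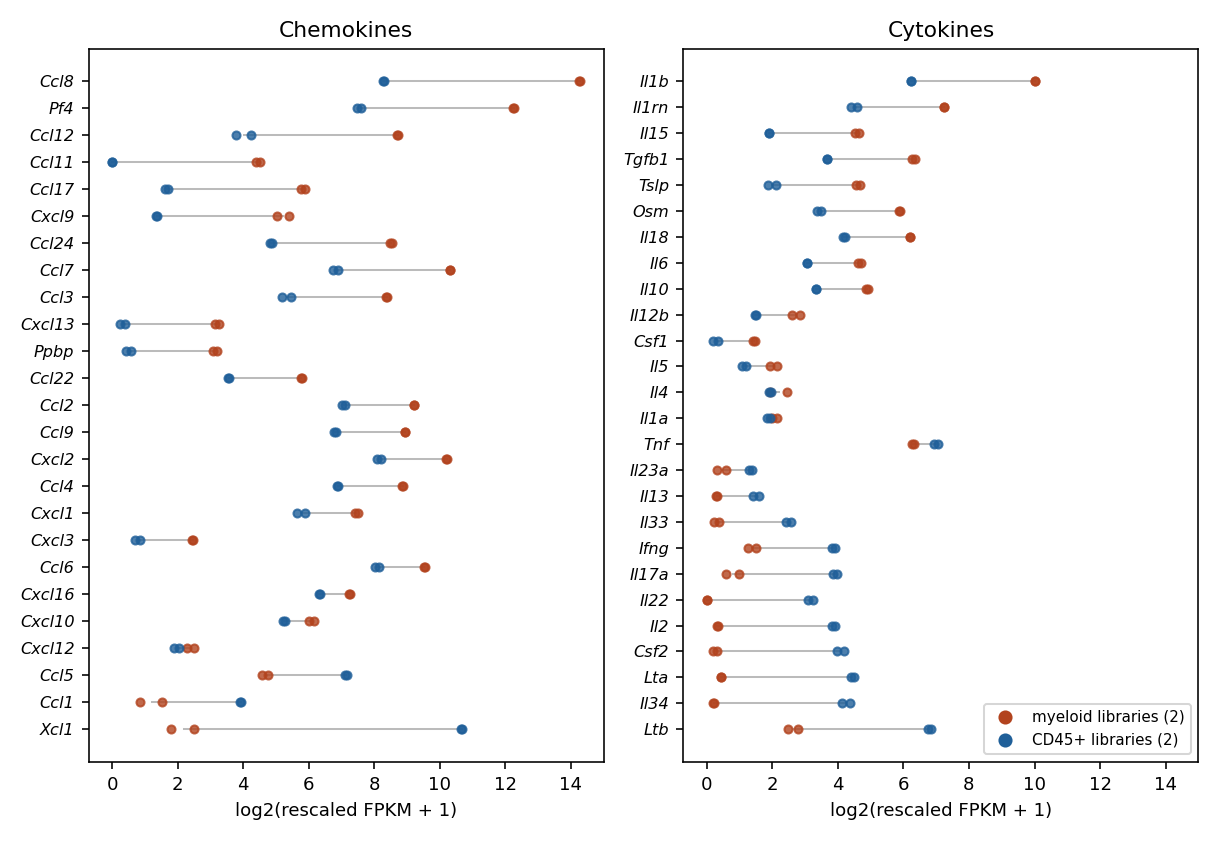
Level of each listed chemokine (left) and cytokine (right) in each library, as log2(rescaled FPKM + 1), ordered by the difference; red points are the 2 myeloid and blue points the 2 CD45+ libraries, joined by a grey line between the group means. *Ccl8* and *Il1b* top the myeloid side, *Xcl1* and *Ltb* the CD45+ side, and *Tnf* and *Cxcl12* lie close together.

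Cytokine receptors leaned to CD45+ cells, with 7 of 26 higher there and 2 higher in myeloid cells. With equal FPKM sums the counts were 8 and 0. *Il2rb*, the chain that interleukins 2 and 15 share, read 3.49 and 3.39 FPKM in the myeloid and 793 and 756 FPKM in the CD45+ libraries (-7.45). *Il12rb2* (-4.94) and *Il12rb1* (-3.55) form the receptor of interleukin 12. Set beside the ligands, *Il15* was higher in myeloid and *Il2rb* higher in CD45+ cells. The growth factor list gave 5 of 19 higher in myeloid cells, with *Gas6* (302 against 34.1 FPKM) next to *Igf1*, and 3 in CD45+ cells. *Areg*, an EGF receptor ligand that T cells and innate lymphoid cells can make (ENSMUSG00000029378.5, chromosome 5, 91139599 to 91148432, + strand), read 8.05 and 8.16 FPKM in the myeloid and 511 and 503 FPKM in the CD45+ libraries (-5.80). *Wnt10a* stood at 6.14 and 5.72 FPKM in CD45+ and is listed at 0 in myeloid cells.

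*Spp1*, the gene of osteopontin and the signal the study centres on, was close between the populations in wild type skin at P56. It read 22.3 and 20.2 FPKM in the myeloid and 15.6 and 14.9 FPKM in the CD45+ libraries (0.45) and was not called. At wild type P30 it was called higher in myeloid cells, at 243 and 289 FPKM in the myeloid and 18.9 and 16.6 FPKM in the CD45+ libraries (3.83), and in the mutant at P56 it read 754 and 754 FPKM in the myeloid and 321 and 338 FPKM in the CD45+ libraries (1.19) and was not called. The study reports that pigment cells (melanocytes) of the mutant raise *Spp1*. In the mutant libraries used here, summed melanocyte genes were 589 and 589 FPKM in the myeloid and 44.8 and 42.7 FPKM in the CD45+ ones. In the wild type P56 myeloid libraries these sums were 8.46 and 9.92 FPKM. The part of melanocyte transcripts in the *Spp1* values was not tested. The osteopontin receptor gene *Cd44* read 179 and 187 FPKM in the myeloid and 298 and 313 FPKM in the CD45+ libraries at wild type P56 (-0.74). Of 12 genes of osteopontin, its receptors and its proteases, *Itga9* (2.94) and *Mmp12* (90.7 against 13.4 FPKM) were higher in myeloid and *Itgav* (4.56 against 67.8 FPKM) in CD45+ cells. Among 11 leukocyte integrins, 4 were higher in CD45+ cells. *Itgae*, the gene of CD103, which holds T cells to the epithelium, read 1.80 and 1.37 FPKM in the myeloid and 207 and 201 FPKM in the CD45+ libraries (-6.32), and *Itgal* (-3.21) and *Itga6* (-2.02) followed. The call of *Itga6* was lost without myeloid replicate 2.

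Of 17 immediate early and heat shock genes 4 were higher in myeloid cells, the near copies *Hspa1a* (1583 against 71.7 FPKM) and *Hspa1b* (90.7 against 3.83 FPKM), *Jund* and *Ier3* (2.29), and 1 in CD45+ cells, *Nr4a2*. Since *Hspa1a* and *Hspa1b* are near-identical, the share of each is uncertain. The call of *Ier3* was lost with equal FPKM sums. Of 16 proliferation genes 1 was called, *Birc5* (33.8 against 7.23 FPKM). Its call was not kept without rescaling, with equal FPKM sums or without CD45+ replicate 2. Over all genes compared, 6.06% were called higher in myeloid and 7.23% higher in CD45+ cells.

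Markers of cells that are not white blood cells also differed. Keratinocyte and follicle genes were higher in CD45+ cells in 15 of 16 compared (median -4.02), and summed levels over the 20 listed were 88.6 and 88.1 FPKM in the myeloid and 2138 and 2055 FPKM in the CD45+ libraries. The basal keratin *Krt14* read 8.69 and 9.75 FPKM in the myeloid and 611 and 555 FPKM in the CD45+ libraries, and *Krtdap* (-6.74), *Sfn* (-5.14) and *Krt1* (-4.97) went with it, while the root sheath keratins *Krt25*, *Krt27* and *Krt71* are listed at 0 in all 4 libraries. These moved with the T cell, Langerhans, *Areg*, *Wnt10a*, *Il34*, *Itga6* and *Sdc1* results, and their part in them was not tested.

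On the myeloid side, 5 of 9 fibroblast genes were higher, with *Dcn* (109 against 7.14 FPKM), *Col1a2* (23.5 against 0.996 FPKM), *Col3a1* (3.03) and *Lum* (2.85), and sums over the 10 listed of 414 and 419 FPKM in the myeloid and 86.9 and 84.3 FPKM in the CD45+ libraries. *Pdgfra* is listed at 0 in both CD45+ libraries. Of 6 endothelial genes 3 were higher in myeloid cells, *Flt1* (2.86), *Vwf* (2.69) and *Eng* (2.64), with sums over the 9 listed of 81.2 and 82.3 FPKM in the myeloid and 20.2 and 15.6 FPKM in the CD45+ libraries. These moved with *Timp2*, *Igf1*, *C4b* and *Ccl11*, which such cells can also make, and their part in the result was not tested. Sums stayed at 7.71 to 9.92 FPKM for 10 melanocyte genes, 3.68 to 6.80 FPKM for mural and 9.39 to 17.1 FPKM for adipocyte genes, none of which was called, nor was any of 4 erythroid genes.

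The same contrast was made in other libraries, whose values come from the same 2 deposited tables. A difference between tables would recur there as would a difference between cell types. Each comparison was rescaled on its own. In wild type mice at P30, when follicles grow, 433 of 11981 genes were higher in myeloid (3.61%) and 656 in CD45+ cells (5.48%), and in mutant mice at P56 389 of 11890 (3.27%) and 450 (3.78%). Of the 719 genes higher in myeloid cells at wild type P56, 186 (25.9%) were called the same way at P30 and 134 (18.6%) in the mutant, and 704 and 634 had the same sign. Of the 858 higher in CD45+ cells, 486 (56.6%) and 301 (35.1%) were called the same way, and 812 and 785 had the same sign. Called the same way in all 3 comparisons were 78 and 241 genes. How many of all genes compared kept their sign was not counted. At P30 transcripts linked to sex differed as well. *Ddx3y*, a Y-linked gene, read 5.67 and 5.21 FPKM as deposited in the CD45+ libraries and is listed at 0 in the myeloid ones, while *Xist*, which the inactive X chromosome of females makes, read 14.5 and 14.0 FPKM in the CD45+ and 24.4 and 26.7 FPKM in the myeloid libraries. *Ddx3y* is listed at 0 in the 4 wild type P56 libraries. What this adds to the P30 differences was not tested.

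**Figure D5:**
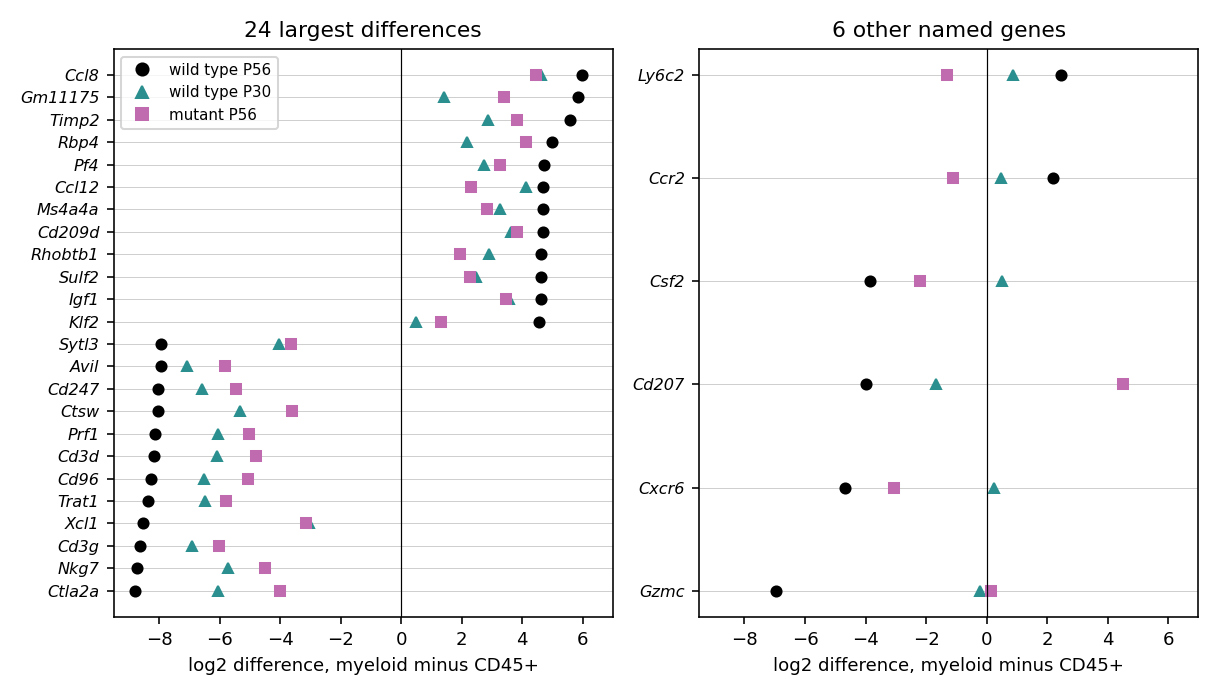
Difference of log2(rescaled FPKM + 1), myeloid minus CD45+, for the 24 largest differences of wild type P56 (left) and 6 other named genes (right) in wild type P56 (black circles), wild type P30 (teal triangles) and mutant P56 (pink squares). The 24 keep their sign in all 3 comparisons, with all 24 nearer 0 at P30 and in the mutant, while *Cd207* stands at -3.99 and 4.49 in wild type and mutant P56.

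All 24 genes with the largest differences kept their sign in both other comparisons, and all 24 were nearer 0 there than at wild type P56. As they were chosen for their size at wild type P56, this order is a description only. *Ccl8* differed by 4.63 at P30 and 4.46 in the mutant, and *Cd3g* by -6.91 and -6.02. Summed T cell genes were 162 and 181 FPKM in the myeloid and 6051 and 6239 FPKM in the CD45+ libraries at P30, and 167 and 176 FPKM in the myeloid and 3539 and 3370.4 FPKM in the CD45+ libraries in the mutant. Some genes called at wild type P56 stood within 4-fold in another comparison, 3 of the 24 among them. *Gm11175* differed by 1.40 at P30, and *Rhobtb1* by 1.95 in the mutant. *Klf2* read 130.3 and 168 FPKM in the myeloid and 104 and 106 FPKM in the CD45+ libraries at P30 (0.49) and differed by 1.33 in the mutant. *Gzmc* read 89.6 and 82.3 FPKM in the myeloid and 97.2 and 103 FPKM in the CD45+ libraries at P30 (-0.22) and 228 and 229 FPKM in the myeloid and 207 and 201 FPKM in the CD45+ libraries in the mutant (0.16). *Cxcr6* differed by 0.24 at P30 and -3.06 in the mutant.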

How the data were processed

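RNA of sorted mouse dorsal skin cells was sequenced in bulk. Per the labels and the study's methods, the authors made full-length cDNA, aligned paired reads with STAR 2.4.2 to GRCm38 (mm10) and computed FPKM with RSEM. The deposited FPKM tables of myeloid and of CD45+ cells were used, and the other 4 tables were not. Depth is unknown.

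The tables (18913 and 31002 genes) were joined on the Ensembl identifier after 23 and 27 symbols that had become dates were restored. Of 15426 protein-coding genes in both, those at 1 FPKM or more in at least 2 of the 4 libraries were compared. The libraries were rescaled by median ratios, and differences were taken on log2(FPKM + 1) with Python 3.11.15, numpy 2.4.6 and pandas 2.3.3. The rule for calls was tested on simulated data. No test was made and no p-value is given.

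Named are the 12 called genes with the largest difference in each direction at a mean of 10 FPKM or more, up to 4 called members of a list with the largest difference (or the 2 of highest mean where none was called), and *Ptprc*, *Itgam*, *Adgre1*, *Cd3e*, *Cd207*, *Spp1* and *Cd44*. Other list members, *Lyz1*, *Lyz2* and the chemokine cluster were named after their values were seen. There were 39 lists with 527 genes. Some genes are members of several lists, such as *Nkg7* and the CD3 genes, so results of lists are not independent. Some members of the lists are not reported here. The samples, lists and rules were chosen with earlier results of these data known. Where 2 identifiers carry 1 symbol (*Itgam*), the one with the higher mean was used. Positions are from GENCODE M21 on GRCm38 and promoters from RefSeq. Alternatives were other scalings, pseudocounts, filters and fold limits, and each library left out. Leaving out each library with the gene set of all 4 libraries was added after the data were seen.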

Additional observations from a re-analysis of the deposited data

Results flagged for a closer look

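Some genes differed in opposite directions in wild type P56 and in another comparison, with the 2 libraries of each cell type on the same side in both. The differences between comparisons were not tested, and values are log2 differences, myeloid minus CD45+.

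*Lyz2*, which encodes lysozyme, was higher in myeloid cells at wild type P56 (2.23) and far lower at P30 (-8.73) and in the mutant (-8.78). It read 9948 and 9689 FPKM in the myeloid libraries at wild type P56, a mean of 13.5 at P30 and of 24.1 in the mutant. Its near copy *Lyz1* stood at 1706 and 1703 FPKM, and at 1635 and 2039 (P30) and 2747 and 2805 FPKM (mutant), in the same libraries. How reads shared by the copies were divided is not known here, so the values of *Lyz2* are uncertain.

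*Cd207* was higher in CD45+ cells at wild type P56 (-3.99) and higher in myeloid cells in the mutant (4.49), where it read 278 and 293 FPKM in the myeloid and 11.5 and 11.9 FPKM in the CD45+ libraries. At wild type P30 it differed by -1.68. Summed Langerhans cell genes were 465 and 482 FPKM in the myeloid and 164 and 166 FPKM in the CD45+ libraries in the mutant, with keratinocyte genes at 221 and 221 FPKM in the myeloid and 1178 and 1182 FPKM in the CD45+ libraries. Their part in the result was not tested.

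Of 11 monocyte genes the 3 called higher in myeloid cells at wild type P56 had the opposite sign in the mutant, within 4-fold and so not called there, with *Ly6c2* at -1.29, *Ccr2* at -1.11 and *Chil3* at -1.73. With equal FPKM sums these 3 were not called at wild type P56 either. The interferon response gene *Oas2* stood at -1.03 in the mutant. The other way round, lower in myeloid cells at wild type P56 and higher in the mutant, were *Il1r2* (1.29), *Sdc1* (1.09), *Cfd* (1.52) and the globins *Hba-a2* (4.42) and *Hbb-bs* (4.86), and at P30 the receptor *Ccr8* (1.10). Summed erythroid genes in the mutant were 237 and 225 FPKM in the myeloid and 8.17 and 6.26 FPKM in the CD45+ libraries, and melanocyte genes 589 and 589 FPKM in the myeloid and 44.8 and 42.7 FPKM in the CD45+ libraries.

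Called higher in CD45+ cells at wild type P56 and higher in myeloid cells elsewhere were *Cystm1* (2.58 at P30 and 3.11 in the mutant), *BC022687* (3.73 and 2.53), and in the mutant *Hspb1* (3.54), *Mgll* (2.60), *Gsta4* (2.45), *Gm21967* (2.29), *Mcoln3* (2.27), *H2-M2* (2.16), *Ramp3* (2.06) and *Errfi1* (2.01).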

How the results depend on the processing

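No paired analysis was possible because the results come from no test, none having been made between the separate tables of the 2 cell types. The counts of 719 genes higher in myeloid and 858 higher in CD45+ cells were 461 and 1191 with equal FPKM sums, 1137 and 1409 with a pseudocount of 0.1, 2143 and 2269 at 2-fold and 217 and 400 at 8-fold. They stayed within 1.5 times the counts above without rescaling (559 and 1009), with a minimum of 5 FPKM (669 and 793) and with no filter (719 and 858). Without 1 library at a time the counts ran from 633 to 650 for myeloid and from 509 to 846 for CD45+ cells. The count for CD45+ cells was 509 without CD45+ replicate 1 and 511 without CD45+ replicate 2, where 1 CD45+ library cannot meet a minimum in 2 libraries by itself. With the gene set of all 4 libraries kept, the counts without 1 library ran from 700 to 730 and from 862 to 886. Of 117 named genes that were called, 112 stayed called without rescaling, 107 with equal FPKM sums and 114 to 117 without 1 library on the gene set of all 4, and no named gene that was called changed sign in any of these settings. The 2 libraries a group and the unknown depth of each library limit all values.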

Other observations

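The CD45+ table lists 6504 protein-coding genes that the myeloid table does not, so these entered no comparison. Of them 76 read 1 FPKM or more, as deposited, in both wild type P56 CD45+ libraries, and 4 averaged 10 FPKM or more. These were the ion channel gene *Trpm6* (32.2 FPKM), the proton channel gene *Otop1* (16.4 FPKM), *Adamtsl3* (14.6 FPKM) and the adhesion gene *Kirrel3* (12.6 FPKM). Whether the genes left out of the myeloid table were at 0 there is not known.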
